A study of Rattus norvegicus with 4 samples.

Results

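The tropomyosin genes Tpm1, Tpm2, Tpm3 and Tpm4 were measured by 13 of the 8799 probe sets of the rat RG-U34A array, namely those to which the platform annotation gives 1 of these names and no other gene. They are 4 of the 4736 genes named in this way. Tpm1 has 5 such probe sets, Tpm3 has 5, Tpm4 has 2 and Tpm2 has 1. The cells are Rat1 fibroblasts, an immortalized rat line, stably infected either with a retrovirus for Omomer, which is the Myc inhibitor Omomyc fused to a tamoxifen-dependent estrogen receptor part, or with the empty virus. RNA came from both lines after 90 min of 10% serum and, as the 0 min samples, from both lines at the end of 48 h in 0.1% serum, with 1 array for each. Both cell lines had 4-OHT, the ligand that switches Omomer on; the labels give it for the whole starvation and the methods only for the last hours of it. Whether either line was a single clone is not given in the sources used here. The vector field in the labels names the empty vector for both 0 min samples and Omomyc for both 90 min samples, against titles and descriptions that split each time by cell line, and the titles were followed here.

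Tropomyosins are coiled-coil proteins that pair into dimers and join end to end along the groove of the actin filament, where they govern the access of myosin and of severing proteins. Together the genes yield many forms by alternative promoters and splicing. Some are found in striated or smooth muscle and others in all cells, where they mark distinct actin filaments such as stress fibres. The reference annotation of the rat (GRCr8) lists 28 transcripts for Tpm1 on chromosome 8 (76516654 to 76543661), 4 for Tpm2 on chromosome 5 (62566712 to 62576066), 24 for Tpm3 on chromosome 2 (177812534 to 177842661) and 1 for Tpm4 on chromosome 16 (17718442 to 17732483). Which of these transcripts a probe set detects is not given in the sources used here, so that probe sets are named by their IDs. Those ending in _s_at share probes between related sequences.

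Values are average differences, the brightness of perfectly matched probes minus that of mismatched probes on a linear scale, and can be negative. The SD of the noise, taken from the negative values of all 4 arrays, was 524, and values under a floor of 1048 (2 times this SD) were set to the floor before ratios were formed. A fold with 1 value under the floor is a bound, and none is given with both under it. The noise range printed with some folds is the fold after both values are shifted by 1 noise SD in opposite directions, and covers neither proportional error nor differences between cultures. With 1 array per condition the spread between cultures is not known and no test between conditions was run, and "called" means at least 3-fold apart. Across the 389 genes with at least 2 probe sets above the floor on every array, the SD of log2 folds within a gene was 0.73 for Rat1-Omomer at 90 min over 0 min and 0.31 for Rat1-control at 90 min over 0 min. Taken array by array, the floor would lie between 895 (Rat1-control, 0 min) and 1228 (Rat1-Omomer, 90 min). The bright end of the arrays differed as well, with a 99th percentile of all values at 72057 (Rat1-Omomer) and 54800 (Rat1-control) after 90 min of serum, against 43961 (Rat1-Omomer) and 45776 (Rat1-control) before it. Fibroblast markers stood above the floor for 8 of 11 genes on each array, with Dcn, Lum and Pdgfrb under it, and 0 to 2 of 9 striated muscle genes did so. Of 4 leukocyte genes 1 or 2 did so on each array, and of 4 epithelial genes 0.

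Of the 13 probe sets, 8 lay above the floor on all arrays and 2 on some. The other 3, L24777_at and rc_AA818554_s_at for Tpm3 and rc_AI105374_at for Tpm4, lay under it everywhere and have no fold. L24776_at for Tpm3 passed the floor on 1 array only, Rat1-Omomer at 0 min, with 1049, and read between 402 and 673 on the others, so that its folds, which lie at the floor, are counted below but not read. rc_AI105374_at had 988 in Rat1-Omomer and -1896 in Rat1-control cells after 90 min of serum, and at 0 min 846 in Rat1-Omomer and -1765 in Rat1-control cells. It was positive in Rat1-Omomer and negative in Rat1-control cells at both times, always below what the noise allows to be read. The results below rest on 9 probe sets, 5 for Tpm1, 2 for Tpm3 and 1 each for Tpm2 and Tpm4.

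**Figure D1:**
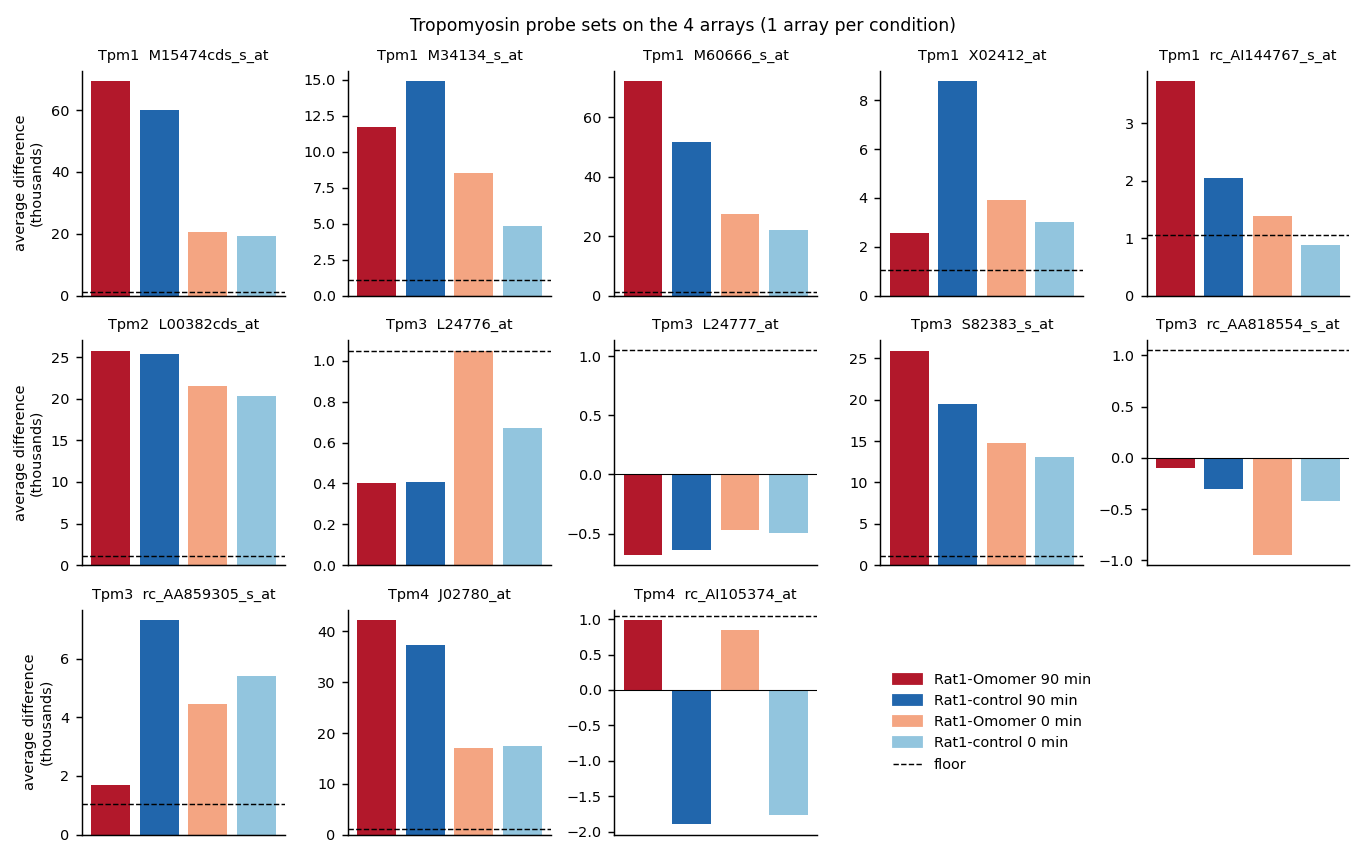
Average differences (axes in units of 1000) of the 13 tropomyosin probe sets, 1 panel each with its own linear axis; bars are single arrays, from left to right Rat1-Omomer 90 min, Rat1-control 90 min, Rat1-Omomer 0 min and Rat1-control 0 min, and the dashed line is the floor of 1048. In 3 panels the bars (L24777_at, rc_AA818554_s_at, rc_AI105374_at) stay under the line, and X02412_at and rc_AA859305_s_at have their lowest bar in Rat1-Omomer cells at 90 min.

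Tpm1, the alpha tropomyosin gene, had higher values at 90 min of serum in both cell lines by M15474cds_s_at and M60666_s_at. M15474cds_s_at read 69320 in Rat1-Omomer and 60179 in Rat1-control cells after 90 min of serum, and at 0 min 20438 in Rat1-Omomer and 19142 in Rat1-control cells. Both arrays at 90 min thus lie far above both at 0 min. The fold over the own 0 min array was 3.39 in Rat1-Omomer cells (noise range 3.28 to 3.51) and 3.14 in Rat1-control cells (3.03 to 3.26). With quantile normalization, which gives all arrays the same bright end, the fold was 2.45 in Rat1-Omomer and 2.89 in Rat1-control cells, both under the threshold.

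M60666_s_at read 72120 in Rat1-Omomer and 51755 in Rat1-control cells after 90 min of serum, and at 0 min 27403 in Rat1-Omomer and 22054 in Rat1-control cells. The order of the arrays was the same as for M15474cds_s_at, with folds of 2.63 in Rat1-Omomer and 2.35 in Rat1-control cells. With quantile normalization the fold was 1.82 in Rat1-Omomer and 2.15 in Rat1-control cells, so that the larger response changed sides. The dimmer rc_AI144767_s_at had this order as well. It read 3726 in Rat1-Omomer and 2050 in Rat1-control cells after 90 min of serum, and at 0 min 1391 in Rat1-Omomer and 885 in Rat1-control cells, of which the last is under the floor. Its fold at 90 min was 2.68 in Rat1-Omomer cells, with a wide noise range of 1.67 to 4.05, and at least 1.96 in Rat1-control cells.

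The remaining pair of Tpm1 probe sets had a different order of the arrays, with Rat1-control above Rat1-Omomer cells at 90 min. X02412_at read 2563 in Rat1-Omomer and 8772 in Rat1-control cells after 90 min of serum, and at 0 min 3920 in Rat1-Omomer and 3017 in Rat1-control cells. The Rat1-control 90 min array was the highest and the Rat1-Omomer 90 min array the lowest of all 4. The fold at 90 min was 1.53 lower in Rat1-Omomer cells (noise range 1.10 to 2.18) and 2.91 higher in Rat1-control cells (2.33 to 3.73). M34134_s_at read 11723 in Rat1-Omomer and 14879 in Rat1-control cells after 90 min of serum, and at 0 min 8495 in Rat1-Omomer and 4809 in Rat1-control cells. Here both 90 min arrays were above both 0 min arrays, but the 0 min values of the cell lines lay apart, and the fold was 1.38 in Rat1-Omomer cells (1.24 to 1.54) and 3.09 in Rat1-control cells (2.69 to 3.59).

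The 4 probe sets of Tpm1 above the floor on all arrays therefore spread more in Rat1-Omomer than in Rat1-control cells. The SD of their log2 folds at 90 min over 0 min was 1.06 for Rat1-Omomer and 0.19 for Rat1-control. Among 86 other genes with at least 3 such probe sets, 72 had a smaller SD than Tpm1 for Rat1-Omomer and 39 for Rat1-control, and the median SD of all 87 was itself larger for Rat1-Omomer cells, 0.50 against 0.21. The part of the single Rat1-Omomer 90 min array in the spread of Tpm1 was not tested.

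Tpm4, which encodes a short non-muscle tropomyosin, is read by J02780_at alone. Its value was 42178 in Rat1-Omomer and 37330 in Rat1-control cells after 90 min of serum, and at 0 min 17004 in Rat1-Omomer and 17529 in Rat1-control cells. The cell lines lay close together at each time and the times far apart, with folds of 2.48 in Rat1-Omomer cells (noise range 2.38 to 2.59) and 2.13 in Rat1-control cells (2.04 to 2.23). Neither reached 3-fold.

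Tpm2, the beta tropomyosin gene, differed least. L00382cds_at read 25769 in Rat1-Omomer and 25366 in Rat1-control cells after 90 min of serum, and at 0 min 21575 in Rat1-Omomer and 20358 in Rat1-control cells. All 4 arrays are near each other, and the folds at 90 min were 1.19 in Rat1-Omomer cells (noise range 1.14 to 1.25) and 1.25 in Rat1-control cells (1.19 to 1.31). With quantile normalization the log2 fold in Rat1-Omomer cells was 0.

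Tpm3, which gives rise to a slow muscle and to non-muscle tropomyosins, was read by a pair of probe sets that went apart. S82383_s_at read 25921 in Rat1-Omomer and 19436 in Rat1-control cells after 90 min of serum, and at 0 min 14764 in Rat1-Omomer and 13066 in Rat1-control cells. These values follow the order of the arrays in Tpm1 M60666_s_at, with smaller folds of 1.76 in Rat1-Omomer cells (noise range 1.66 to 1.86) and 1.49 in Rat1-control cells (1.39 to 1.59). rc_AA859305_s_at, made from an expressed sequence tag, read 1691 in Rat1-Omomer and 7307 in Rat1-control cells after 90 min of serum, and at 0 min 4443 in Rat1-Omomer and 5397 in Rat1-control cells. The Rat1-Omomer 90 min array alone is low. Its fold at 90 min was 2.63 lower in Rat1-Omomer cells (1.77 to 4.26) and 1.35 higher in Rat1-control cells (1.15 to 1.61).

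Counted together, 1 of 10 tropomyosin probe sets with a fold, L24776_at included, was called higher in Rat1-Omomer cells at 90 min over 0 min, by M15474cds_s_at, where 2.9% of 4209 probe sets of the array were. In Rat1-control cells 2 of 9 were called higher, both of Tpm1 (M15474cds_s_at and M34134_s_at), where 1.93% of 3985 were. Median scaling made this count 3, with X02412_at. Quantile normalization left both counts as they were, but with rc_AI144767_s_at (3.14-fold) in place of M15474cds_s_at in Rat1-Omomer cells, and with X02412_at (3.03-fold) in its place in Rat1-control cells. In neither line was a tropomyosin probe set called lower, against 9.65% of all probe sets for Rat1-Omomer and 1.81% for Rat1-control. At a threshold of 2-fold, chosen with the values known, 4 were higher in Rat1-Omomer cells, where 9.19% of all probe sets were, and 1 lower, where 17.5% were. In Rat1-control cells 5 were higher, where 5.45% were, and 0 lower, where 7.23% were. The median log2 fold in Rat1-Omomer cells was 0.64 for the 10, against 0.09 over all probe sets tested, and in Rat1-control cells it was 1.09 for the 9, against -0.07 over all. All 9 were above 0 in Rat1-control cells, whereas 7 of 10 were so in Rat1-Omomer cells. Of the 9, 5 measure Tpm1, so that these counts and medians weigh probe sets and not genes.

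**Figure D2:**
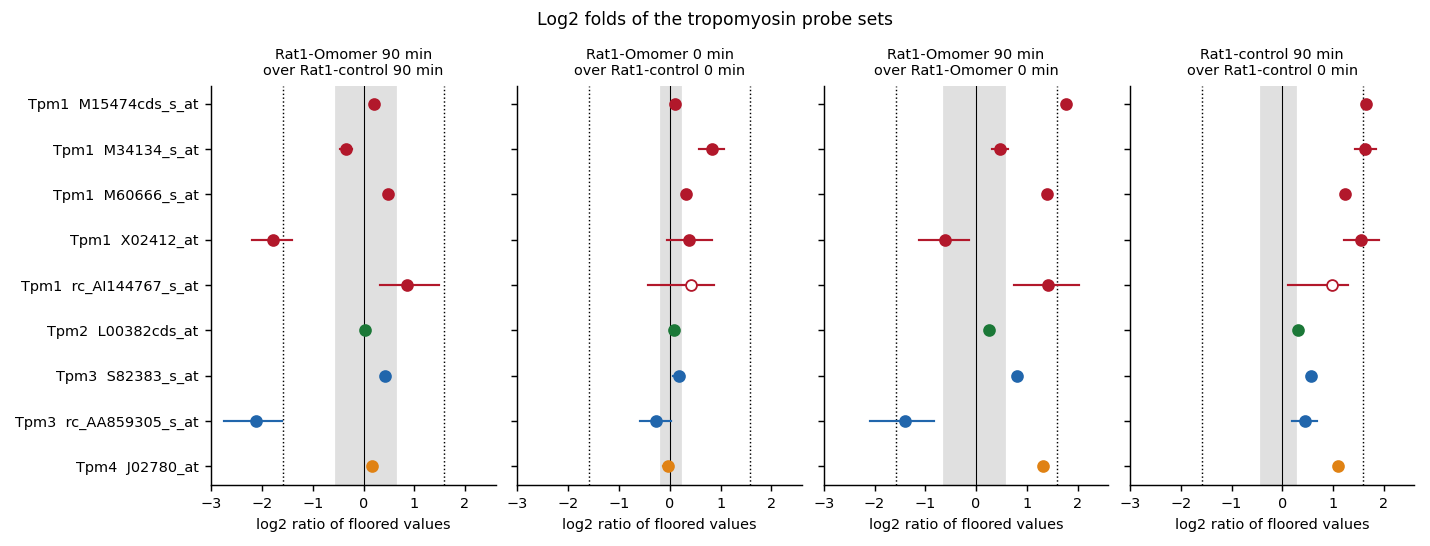
Log2 ratios of floored values for the 9 tropomyosin probe sets above the floor on at least 2 arrays, in 4 comparisons of single arrays (panels). Points are ratios, open where 1 value was under the floor, lines are the noise range (1 noise SD of 524 on each value), grey bands hold the interquartile range of all probe sets and dotted lines mark 3-fold; only X02412_at and rc_AA859305_s_at lie past the left dotted line for Rat1-Omomer over Rat1-control cells at 90 min, and M15474cds_s_at and M34134_s_at past the right one for Rat1-control cells.

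At 0 min the cell lines differed little. The largest difference was that of Tpm1 by M34134_s_at, 1.77-fold higher in Rat1-Omomer than in Rat1-control cells (noise range 1.49 to 2.10), above 97.6% of all probe sets. The other 8 lay between 1.21-fold lower, for rc_AA859305_s_at, and at least 1.33-fold higher, for rc_AI144767_s_at. None of these, nor L24776_at, was called, where 0.251% of the 3977 probe sets tested were higher and 0.503% lower. Tpm4 (1.03-fold lower) and Tpm2 (1.06-fold higher) were nearly level between the lines.

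At 90 min, 2 of the 9 probe sets were called lower in Rat1-Omomer than in Rat1-control cells, and none was called higher. Of all 4048 probe sets tested, 8.57% were lower and 2.22% higher. Tpm1 by X02412_at was 3.42-fold lower (noise range 2.67 to 4.56), and between 3.14-fold and 3.45-fold lower under the other settings tried. Tpm3 by rc_AA859305_s_at was 4.32-fold lower (3.06 to 6.71), and between 3.49-fold and 4.36-fold lower under the other settings. Its ID places it among 5 series of expressed sequence tags (rc_AA79, rc_AA80, rc_AA85, rc_AA87 and rc_AA89) in which 27.2% of probe sets were called lower in this comparison, against 3.3% outside them. X02412_at is outside them. The series were grouped with earlier results of these data known, so that these shares are a description only. The part of these tag series in the low value of rc_AA859305_s_at was not tested.

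The other 7 went from 1.27-fold lower, for Tpm1 by M34134_s_at, to 1.82-fold higher, for rc_AI144767_s_at. Tpm1 was 1.15-fold higher by M15474cds_s_at and 1.39-fold higher by M60666_s_at, Tpm4 1.13-fold higher, Tpm3 by S82383_s_at 1.33-fold higher and Tpm2 1.02-fold higher. With quantile normalization the sign turned for M15474cds_s_at (log2 fold -0.20) and for Tpm2 (-0.14). The median of the 9, 0.18, equals that of all probe sets tested, 0.18.

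The response of Rat1-Omomer cells minus that of Rat1-control cells, each over its own 0 min array, puts these values in 1 number. For 6 of the 9 it lay between -0.06 (Tpm2) and 0.45 (Tpm1 by rc_AI144767_s_at) on the log2 scale, with 0.11 for M15474cds_s_at, 0.17 for M60666_s_at, 0.22 for Tpm4 and 0.24 for Tpm3 by S82383_s_at. With quantile normalization these 6 lay between -0.24 and 0.65, and the sign turned for M15474cds_s_at (-0.24) and M60666_s_at (-0.24), so that no direction is read from them. For M34134_s_at it was -1.16 (percentile 15.3 of the 3766 probe sets that have both responses), for rc_AA859305_s_at -1.83 (percentile 7.33) and for X02412_at -2.15 (percentile 5.07). The 9 had a median of 0.11, as did all (0.11). With quantile normalization the median of the 9 was -0.24.

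**Figure D3:**
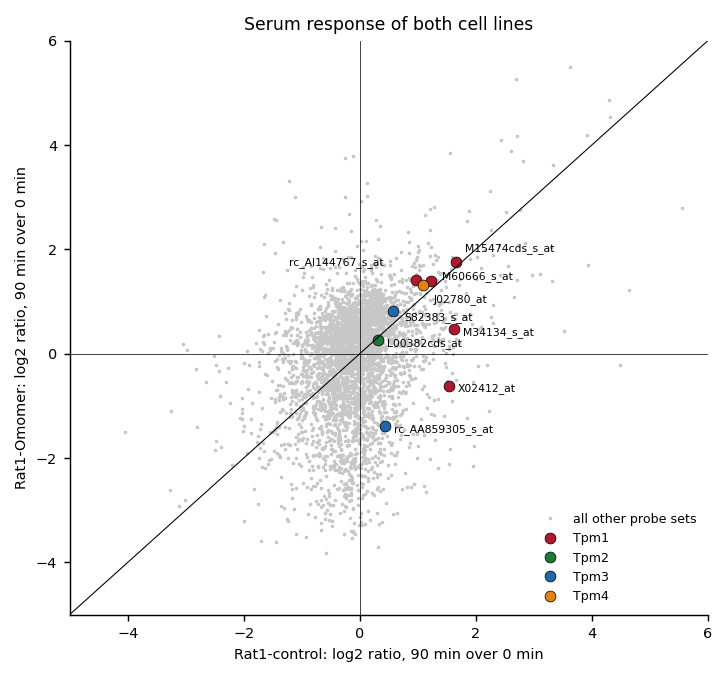
Serum response, as log2 ratio of 90 min over 0 min, of Rat1-Omomer cells (vertical) against Rat1-control cells (horizontal) for each probe set (grey) and for the 9 tropomyosin probe sets (coloured by gene); each axis rests on 2 arrays and the diagonal marks equal responses. Near the diagonal lie 6 of the 9, whereas M34134_s_at (0.46 in Rat1-Omomer and 1.63 in Rat1-control cells), X02412_at and rc_AA859305_s_at lie below it.

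Against Rat1-control cells at 0 min, the common reference of the study, 3 of 9 tropomyosin probe sets were called higher in Rat1-Omomer cells at 90 min, where 2.8% of 4220 probe sets were, and 1 was called lower, where 9.95% were. All 3 measure Tpm1. They were M15474cds_s_at at 3.62-fold, M60666_s_at at 3.27-fold and rc_AI144767_s_at at no less than 3.55-fold. The lower one was Tpm3 by rc_AA859305_s_at at 3.19-fold (noise range 2.20 to 5.07). In the 5 tag series 28.9% of probe sets were called lower here, against 4.36% outside them. With quantile normalization 1 tropomyosin probe set was called higher and 0 lower. At 2-fold 5 were higher, where 10.1% of all were, and 1 lower, where 18.2% were. This comparison shares an array with others above and adds no separate measurement.

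Genes that act with tropomyosin on the actin filament were taken from 7 lists drawn up with earlier results of these data known. Of the 58 genes listed, 32 are named on the array, by 43 probe sets. In Rat1-Omomer cells at 90 min over 0 min, 6 of 28 probe sets with a fold were called higher and 3 lower, with a median log2 fold of 0.55. In Rat1-control cells 9 of 26 were called higher and 0 lower, with a median of 0.72. Over the whole array the shares were, as above, 2.9% higher and 9.65% lower for Rat1-Omomer, and 1.93% higher and 1.81% lower for Rat1-control. The 3 called lower in Rat1-Omomer cells, Myl6, Capza1 and Tln1, all belong to the 5 tag series. In these series 29.6% were called lower in this comparison, against 3.7% outside them. Of those called higher, 2 in Rat1-Omomer and 3 in Rat1-control cells belong to these series as well, namely probe sets of Flnc and Fhl2.

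Among the actins, 2 of 5 probe sets were called higher in each line, both of Acta2, smooth muscle actin, whose other probe set, X06801cds_f_at, was 1.59-fold higher in Rat1-Omomer and 2.77-fold higher in Rat1-control cells. By rc_AA900769_s_at it was 3.99-fold higher in Rat1-Omomer and 4.49-fold higher in Rat1-control cells. By X06801cds_i_at it was 3.26-fold higher in Rat1-Omomer cells and 15.4-fold higher in Rat1-control cells, so that the probe sets of Acta2, too, differ from each other. The lowest actin in Rat1-control cells was Actg1, cytoplasmic gamma actin, at 1.17-fold lower. Of the calponin and caldesmon family, proteins that bind actin beside tropomyosin in smooth muscle, 2 of 6 were called higher in Rat1-Omomer and 3 of 6 in Rat1-control cells. Cnn1, calponin, was at least 18.4-fold higher in Rat1-Omomer and at least 15.1-fold higher in Rat1-control cells. Tagln, transgelin, was 6.94-fold higher in Rat1-Omomer and no less than 47.1-fold higher in Rat1-control cells by M83107_g_at, but 1.17-fold lower in Rat1-Omomer and 22.4-fold higher in Rat1-control cells by M83107_at. Lowest were Cald1, caldesmon, in Rat1-Omomer cells, at 2.76-fold lower, and Tagln3 in Rat1-control cells, at no less than 1.47-fold lower. Cald1 was 1.69-fold higher in Rat1-control cells.

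Of the myosin II chains, the motor that pulls on these filaments, 0 of 7 were called higher and 1 lower in Rat1-Omomer cells, and 1 of 7 was called higher in Rat1-control cells. The call was for Myl9, the regulatory light chain of smooth muscle, which was 1.69-fold higher in Rat1-Omomer and 3.73-fold higher in Rat1-control cells by S77900_at, and 1.11-fold higher in Rat1-Omomer and 2.92-fold higher in Rat1-control cells by S77900_g_at. Myl6, an essential light chain, was the lowest in Rat1-Omomer cells, at 3.70-fold, and Myl12b, another light chain, in Rat1-control cells, at 1.55-fold. The highest in Rat1-Omomer cells was Myl12a at 1.83-fold. Of the crosslinker and adhesion proteins, 1 of 4 probe sets was called higher and 1 lower in Rat1-Omomer cells, whereas 2 of 4 were called higher and 0 lower in Rat1-control cells. Flnc, filamin C, was 4.22-fold higher in Rat1-Omomer and 6.63-fold higher in Rat1-control cells by rc_AA799773_g_at, and by rc_AA799773_at it was 2.64-fold higher in Rat1-Omomer and 9.92-fold in Rat1-control cells. Tln1, talin, was lower in Rat1-Omomer cells by no less than 3.54-fold, and 1.33-fold higher in Rat1-control cells. Fhl2, a LIM protein and the only measured gene of the list for serum response factor (SRF), was 6.67-fold higher in Rat1-Omomer and 3.71-fold higher in Rat1-control cells. Of proteins at filament ends or that sever them, 0 of 3 were called higher in either line, and 1 lower in Rat1-Omomer and 0 in Rat1-control cells, with Cap1, a cofactor of filament turnover, as the highest at 1.16-fold in Rat1-Omomer and 1.31-fold in Rat1-control cells. Capza1, which caps filaments, was the lowest, by no less than 5.86-fold in Rat1-Omomer and by 1.14-fold in Rat1-control cells. The troponins, partners of tropomyosin in striated muscle, had no fold in Rat1-control cells at 90 min over 0 min, since all 7 probe sets were under the floor, and only Tnni3, at 1.04-fold lower, and Tnnt3, at no less than 1.08-fold lower, had one in Rat1-Omomer cells, both close to the floor.

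Between the lines at 90 min, 8 of 27 partner probe sets were called lower in Rat1-Omomer cells and 0 higher. Over all probe sets tested 8.57% were lower and 2.22% higher. The median log2 fold of the 27 was -0.24. Of the 8, 4 belong to the tag series (Flnc, Myl6, Capza1 and Tln1). In these series 27.2% of probe sets were called lower in this comparison, against 3.3% outside them. The others of the 8 are both probe sets of Tagln, Cald1 and Acta2 by X06801cds_i_at. Tagln was 19.1-fold lower by M83107_at and 5.10-fold lower by M83107_g_at, Cald1 4.40-fold lower and Acta2 3.41-fold lower. The highest of each list were Actg1 at 1.89-fold, Fhl2 at 1.87-fold, Cnn3 at 1.78-fold, Myl12b at 1.72-fold, Tnni3 at no less than 1.24-fold and Actn4 at 1.11-fold, with Cap1 1.05-fold lower. Cnn1 was 1.21-fold higher. At 0 min none of 27 was called in either direction, where 0.251% of all probe sets tested were higher and 0.503% lower.

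**Figure D4:**
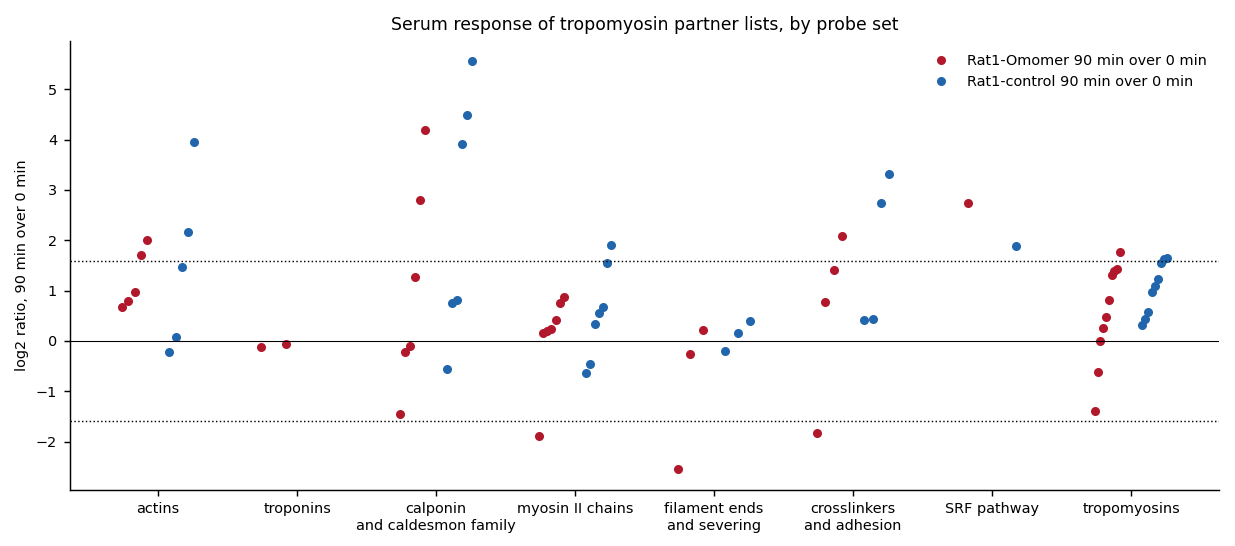
Log2 ratio of 90 min over 0 min for each probe set of the 7 partner lists and of the tropomyosins, Rat1-Omomer cells (red, left in each group) and Rat1-control cells (blue, right); dotted lines mark 3-fold and each point rests on 2 arrays, points against the floor being bounds. All lists except the troponins and the filament ends hold a point above every tropomyosin point. The lowest red points of the myosin, filament end and crosslinker lists are Myl6, Capza1 and Tln1.

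The probe sets most alike in pattern were sought among 2112 with 1 gene name and above the floor on all arrays, by the root mean square distance of log2 values centred on their mean over the 4 arrays. So few points leave room for many close patterns, so that the names are a description only. Nearest to Tpm1 (M60666_s_at) were Myo1c, an unconventional myosin, at 0.05, Sdc4, a syndecan, at 0.11 and Msmo1, an enzyme of sterol synthesis, at 0.12. Nearest to Tpm4 were Purb, a nucleic acid binding protein, at 0.05, Atp2a2, a calcium pump, at 0.05 and Plat, the tissue plasminogen activator, at 0.08. Nearest to Tpm3 (S82383_s_at) were Eif5b, Klf9 and Atic, at 0.03 to 0.05, and to Tpm2 were Tmem120a, Cap1, which binds actin, and Or10al6, each at 0.03. Within the family, M60666_s_at was 0.17 from Tpm4, closer than to M15474cds_s_at of its own gene (0.23) and to X02412_at of its own gene (0.90).

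Promoters are shown for Tpm1, which holds the tropomyosin probe sets called higher at 90 min over 0 min, for Tpm4, whose folds of 2.48 in Rat1-Omomer and 2.13 in Rat1-control cells came next among the genes, and for Tpm2, whose folds were nearest to 1. The CArG box (CC, a run of A or T letters, GG) is the site of SRF, a factor through which serum acts on many actin genes, and the E-box CACGTG is the site of Myc with Max. Windows of 300 bases, from 250 before to 50 after an annotated start, come from RefSeq (GRCr8), which holds 6 for the 4 genes, 3 of them for Tpm3, and need not be the start used in Rat1 cells. Capitals mark a CArG box with at most 1 of its 10 letters off. The strand is the minus strand in all 3, at chr8:76543366-76543665 for Tpm1, chr16:17732434-17732733 for Tpm4 and chr5:62575677-62575976 for Tpm2.
Tpm1: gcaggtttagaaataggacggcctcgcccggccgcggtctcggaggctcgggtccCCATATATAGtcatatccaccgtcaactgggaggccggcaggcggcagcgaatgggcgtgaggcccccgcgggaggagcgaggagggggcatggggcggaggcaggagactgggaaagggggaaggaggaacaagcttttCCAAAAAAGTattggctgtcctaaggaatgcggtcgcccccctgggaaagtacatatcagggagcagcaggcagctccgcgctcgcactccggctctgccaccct
Tpm4: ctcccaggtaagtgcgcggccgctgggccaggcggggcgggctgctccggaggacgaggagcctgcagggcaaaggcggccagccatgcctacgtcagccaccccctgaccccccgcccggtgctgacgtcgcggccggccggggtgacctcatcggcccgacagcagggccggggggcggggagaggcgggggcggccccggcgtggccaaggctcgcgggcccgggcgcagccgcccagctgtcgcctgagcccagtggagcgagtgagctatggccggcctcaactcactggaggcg
Tpm2: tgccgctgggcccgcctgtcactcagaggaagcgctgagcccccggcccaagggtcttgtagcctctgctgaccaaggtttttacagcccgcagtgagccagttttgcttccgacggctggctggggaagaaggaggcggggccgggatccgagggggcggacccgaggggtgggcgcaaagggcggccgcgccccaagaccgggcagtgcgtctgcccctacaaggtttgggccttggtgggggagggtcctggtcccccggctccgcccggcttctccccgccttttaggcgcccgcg
No window of the 4 genes held a full CArG box or the E-box on either strand, of which the CArG box occurs in 1.64% and the E-box in 6.42% of all 33469 windows of the table. The Tpm1 window held a pair of CArG boxes with 1 letter off, CCATATATAG beginning 195 bases before the start and CCAAAAAAGT beginning 55 bases before it. The windows of Tpm4 and Tpm2 held none. Of the 3 Tpm3 windows, that at chr2:177814633-177814932 held CCATGTTAGG and that at chr2:177821115-177821414 held CCTTTACTGG, both on the plus strand. Such a match is found in 21.3% of all windows, so that it describes the letters of the window and says nothing of binding.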

How the data were processed

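Each of 4 samples was hybridized to 1 RG-U34A array. The deposited values are intensities, average differences that the authors computed with MAS 4 at default settings, on a linear scale. Of 8799 probe sets, the 59 of the manufacturer's controls were left out. Names come from the platform annotation: 7006 probe sets have 1 symbol, 308 several. List genes were also matched by current symbols through their gene IDs (GRCr8).

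The noise SD is 1.4826 times the median absolute negative value. Folds are ratios of floored values, in place of the study's software folds, called at the 3-fold of the methods. Functions were tested on simulated data. The number of arrays limits precision. Members, lists and the 5 tag series were chosen with earlier results of these data known. All tropomyosin probe sets are named. Of each partner list, counts are given at 90 min over 0 min, with its highest and lowest genes, and of each gene's brightest probe set the 3 nearest patterns. Some partner genes were named after their values were seen. Alternatives were floors of 1 and 4 noise SDs or of each array alone, both values above the floor, median scaling, quantile normalization, the difference form of the fold, a 2-fold threshold, and leaving out rc_ probe sets or the 5 tag series. The floor of each array, leaving out the tag series and the 2-fold threshold were added after the data were seen. Python 3.11.15, numpy 2.4.6, pandas 2.3.3 and matplotlib 3.10.9 were used.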

Additional observations from a re-analysis of the deposited data

Results flagged for a closer look

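Tropomyosin probe sets are listed here where the cell lines, or the times, moved in opposite directions and both noise ranges excluded a ratio of 1. With 1 array per condition, none of these differences was tested. The noise range covers 1 noise SD only. The rule was applied to tropomyosin probe sets alone, so that the share of the array that meets it is not known. Tpm1 by X02412_at was lower in Rat1-Omomer and higher in Rat1-control cells at 90 min over 0 min, a difference of -2.15 on the log2 scale. Its log2 fold in Rat1-Omomer cells, -0.61, was smaller in size than the SD within a gene for that comparison, 0.73. Tpm3 by rc_AA859305_s_at did the same, with -1.83. Tpm1 by M34134_s_at lay lower in Rat1-Omomer than in Rat1-control cells after 90 min but higher before serum, with -1.16 for the difference between these log2 ratios.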

How the results depend on the processing

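Each condition has 1 array, so that no replicate could be left out. A fit of cell line and time as separate terms over the 4 arrays, which would take the difference between the serum responses as its error, was not run. Of 395 values of single tropomyosin folds under the alternatives, 391 moved by less than the SD within a gene of that comparison and 4 by more, 3 of them for L24776_at, which is near the floor, and 1 for rc_AI144767_s_at, whose lower value a floor of 4 noise SDs raises. At 2-fold, Rat1-Omomer cells at 90 min over 0 min had 5 tropomyosin probe sets called (4 higher, 1 lower), and Rat1-control cells had 5, all higher. For Rat1-Omomer over Rat1-control cells at 90 min, leaving out the rc_ probe sets or the 5 tag series left 1 called, lower, since rc_AA859305_s_at is then not counted. For Rat1-Omomer cells at 90 min over Rat1-control cells at 0 min, where 4 were called, a floor of 4 noise SDs left 2 (0 lower), quantile normalization 1 (1 higher, 0 lower) and leaving out the rc_ probe sets 2 (0 lower). Without the 5 tag series 0 were lower, and at 2-fold 5 were higher. Median scaling took the count for Rat1-control cells at 90 min over 0 min to 3, with X02412_at. Quantile normalization kept the counts at 90 min over 0 min but exchanged M15474cds_s_at for rc_AI144767_s_at in Rat1-Omomer cells and for X02412_at in Rat1-control cells. Medians of the family kept their sign, except that quantile normalization gave -0.04 for Rat1-Omomer over Rat1-control cells at 90 min and -0.24 for the difference of the serum responses. Over all probe sets tested it gave 0.17 for Rat1-Omomer over Rat1-control cells at 90 min. Signal over the noise limits L24776_at, L24777_at, rc_AA818554_s_at and rc_AI105374_at.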

Other observations

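A probe set outside the family by the annotation used here, rc_AA875132_at, carries the name Tpm1 in the supplementary gene list of the study. Its average difference was 4149 in Rat1-Omomer and 5142 in Rat1-control cells after 90 min of serum, and at 0 min 4447 in Rat1-Omomer and 13031 in Rat1-control cells. The Rat1-control 0 min array alone is high, unlike in any Tpm1 probe set above. The value was 2.93-fold lower in Rat1-Omomer than in Rat1-control cells before serum. At 90 min over 0 min it was 1.07-fold lower in Rat1-Omomer and 2.53-fold lower in Rat1-control cells. Rat1-Omomer cells at 90 min lay 3.14-fold below Rat1-control cells at 0 min, past the 3-fold threshold. Its ID belongs to the 5 tag series, and its values were looked up after those of the family were known.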
